A study of Mus musculus with 10 samples.

Results

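The genes described here are 10 myogenic regulators and satellite cell genes, listed by name: Myod1, Myog, Myf5, Myf6, Pax7, Mef2a, Mef2c, Mef2d, Mstn and Runx1. Each was read from every probe set that the array annotation gives to that gene alone. This found 27 probe sets for 9 of the 10 genes, out of 45037 probe sets tested for 18193 genes. Mstn, the secreted brake on muscle growth, had no probe set annotated to it alone and was not analysed here.

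The tissue was gastrocnemius, a mixed calf muscle of mostly fast fibres, from male mice aged 12 to 16 weeks and fasted for 18 h. There were 5 arrays of Skn-1/Pou2f3-deficient mice and 5 of wild-type mice, and the titles call them biological replicates. The labels give the background of both genotypes as mixed 129 x C57BL/6J, with over 10 generations of backcrossing to C57BL/6J and a chow diet, and they name no tissue-specific driver. Pou2f3 is a POU-domain transcription factor known for its role in taste and tuft cells, and the comparison asks what its loss changes in fasted muscle. Values are the deposited ones on a scale taken as log2, and differences are knockout minus wild type.

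Muscle fibres form when MRF proteins, the bHLH family of Myf5, Myod1, Myog and Myf6, bind E-boxes in muscle genes together with E proteins. MEF2 proteins bind A/T-rich sites beside them and amplify the same programme, under the control of class IIa histone deacetylases, CaM kinases and calcineurin. Pax7 marks satellite cells, the stem cells of adult muscle, which are a small minority of its nuclei. Myf6 is the main MRF of mature fibres, while Myog and Runx1 are known to go up in denervated fibres.

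The arrays held few differences between genotypes, and several carried RNA of other tissues. The single Pou2f3 probe set stood at 6.47 in each of the 5 knockout and 5 wild-type arrays and hardly varied, so it does not check the genotype. For most of the table, 38828 probe sets or 86.2%, the SD over all arrays did not exceed 0.01. Such a probe set is said here to hardly vary. Its level can be read but its difference has no size. Array medians lay between 6.23 and 6.24. Fast fibre markers stood 5.60 to 7.68 above them, slow fibre markers 2.32 to 4.61 above. Lymphocyte markers (12 of 14 measured, 9 varying) were high in knockout 5 and wild type 3, at 1.74 and 1.76 above their medians. In the other 8 arrays they lay between −0.08 and 0.07. Their mean level ran from 6.01 to 7.80 in knockouts and from 5.98 to 7.82 in wild types. Epidermis and hair markers (13 of 14 measured, 12 varying) were high in knockouts 1 and 4, by 0.99 and 1.26, and in wild types 1 and 3, by 1.10 and 1.03. In the other 6 arrays they lay between −0.11 and 0.02, and their mean level ran from 6.00 to 7.37 in knockouts and from 6.01 to 7.21 in wild types. On this log scale no marker is listed at 0.

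None of the myogenic genes passed the test between genotypes. Levels of different probe sets are not compared as amounts of RNA. With limma, 0 of the 27 probe sets had an adjusted p under 0.05, against 0.191% of all probe sets. At an unadjusted p under 0.05 there were 5 of 27 (18.5%), against 6.62% of all probe sets. These were 3 probe sets of Mef2c, the Myf6 probe set and a Pax7 probe set that hardly varied. Of the 10 member probe sets that did vary, 4 (40%) had an unadjusted p under 0.05, against 9.92% of all varying probe sets. Of the same 10, 9 averaged higher in knockouts, where 49.2% of all varying probe sets did. Their median difference was 0.20, against −0.0021 over all 6209 varying probe sets. Of these 10, 5 belong to Mef2c and read the same gene, so these are not independent counts. The members were also chosen with earlier results of these data known, so these shares carry no test. In none of the 10 were the genotypes without overlap, against 3.96% of varying probe sets. In bulk muscle, fewer cells of a type and less RNA per cell cannot be told apart.

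**Figure D1:**
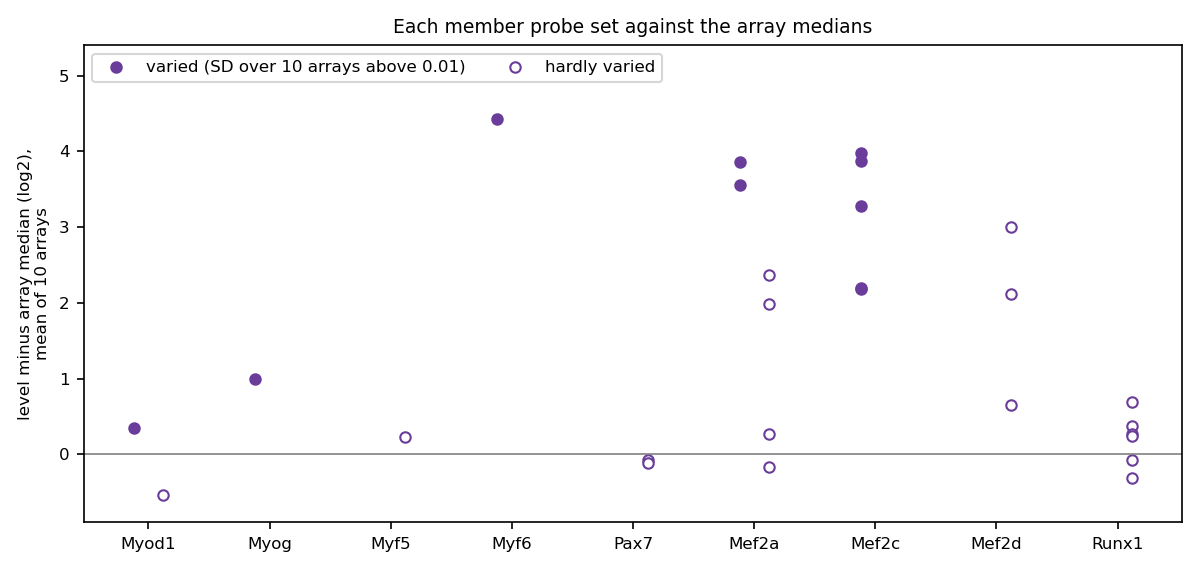
The mean level of each member probe set over the 10 arrays, minus the array median (log2 scale), by gene. Filled dots are the 10 probe sets that varied and open dots the 17 that hardly varied, with Pax7 just below the medians and Myf6 4.43 above.

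The 6 satellite cell markers gave no difference that could be followed. The 2 probe sets of Pax7, the paired-box factor of satellite cells, stood at 6.15 and 6.11 in all arrays, which is 0.08 and 0.12 below the array medians on average. The brighter of them differed by 0.000415 between genotypes (limma unadjusted p = 0.0326, adjusted p = 0.687), a difference with no readable size. Myf5, the MRF of myoblast commitment, stood at 6.46 in its 1 probe set, 0.23 above the medians, with an SD of 0.00321 over the 10 arrays. That SD and the 0.00361 of a Mef2a probe set were the highest below the limit of 0.01, and the next value above it was 0.124. All 6 satellite cell markers (Pax7, Myf5, Cdh15, Calcr, Chrdl2 and Megf10) hardly varied. Their brightest probe sets lay between 0.46 below (Calcr) and 0.88 above (Cdh15) the medians. Background is not given for these values, so none was shown to be above it, and satellite cells could not be followed by these 6 markers. Varying genes of a wider satellite cell and Notch list are described further on.

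Myod1, the MRF that drives myoblasts into the muscle programme, was dim and did not separate the genotypes. Its varying probe set stood at 6.26, 6.63, 6.57, 6.65 and 6.56 in knockouts, against 7.21, 6.33, 6.71, 6.49 and 6.42 in wild types. Wild type 1 was the highest array and knockout 1 the lowest, and the other arrays of both genotypes were mixed. The means were 6.53 ± 0.157 in knockouts and 6.63 ± 0.351 in wild types (SD, n = 5 each), a difference of −0.10 ± 0.17 SE (limma adjusted p = 0.986). Without wild type 1 the difference was 0.04. Both of these arrays carried epidermis markers, whose part in the values was not tested. Without all 5 arrays that carried lymphocyte or epidermis markers, the difference was 0.18, with 2 knockouts against 3 wild types (limma unadjusted p = 0.0445, adjusted p = 0.837). The second Myod1 probe set stood at 5.69, 0.54 below the array medians, and hardly varied.

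Myog, the MRF of terminal differentiation, averaged higher in knockouts, with 1 knockout array well above the rest. Its only probe set stood at 7.01, 7.94, 7.32, 7.29 and 7.23 in knockouts, against 6.86, 7.00, 7.21, 7.07 and 7.26 in wild types. Knockout 2 stood apart at the top, 3 knockouts exceeded every wild type, and the genotypes overlapped. The means were 7.36 ± 0.349 in knockouts and 7.08 ± 0.162 in wild types (SD, n = 5 each). The difference of 0.27 ± 0.17 SE did not pass (limma unadjusted p = 0.139, adjusted p = 0.895, exact two-sided permutation p = 0.111). Without knockout 2 it was 0.13 (limma unadjusted p = 0.237). Without knockout 1 it was 0.36 (limma unadjusted p = 0.0609). Without the 5 arrays with lymphocyte or epidermis markers it was 0.52 (limma adjusted p = 0.869).

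Myf6, the MRF of mature fibres, was higher in knockouts by a small amount that did not pass. Its only probe set stood at 10.70, 10.93, 10.79, 10.76 and 10.62 in knockouts, against 10.41, 10.60, 10.66, 10.55 and 10.60 in wild types. Of the knockouts 4 lay above every wild type, and knockout 5 lay below wild type 3 alone. The means were 10.76 ± 0.114 in knockouts and 10.56 ± 0.0934 in wild types (SD, n = 5 each). The difference of 0.20 ± 0.06 SE corresponds to 1.15 times the wild-type level (limma unadjusted p = 0.0137, adjusted p = 0.536). An exact two-sided permutation test of this gene alone gave p = 0.0159, where 0.00794 is the smallest that 5 against 5 allows. In the fits without 1 array the difference ran from 0.16 to 0.23. Without the 5 arrays with lymphocyte or epidermis markers it was 0.28 (limma adjusted p = 0.810).

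**Figure D2:**
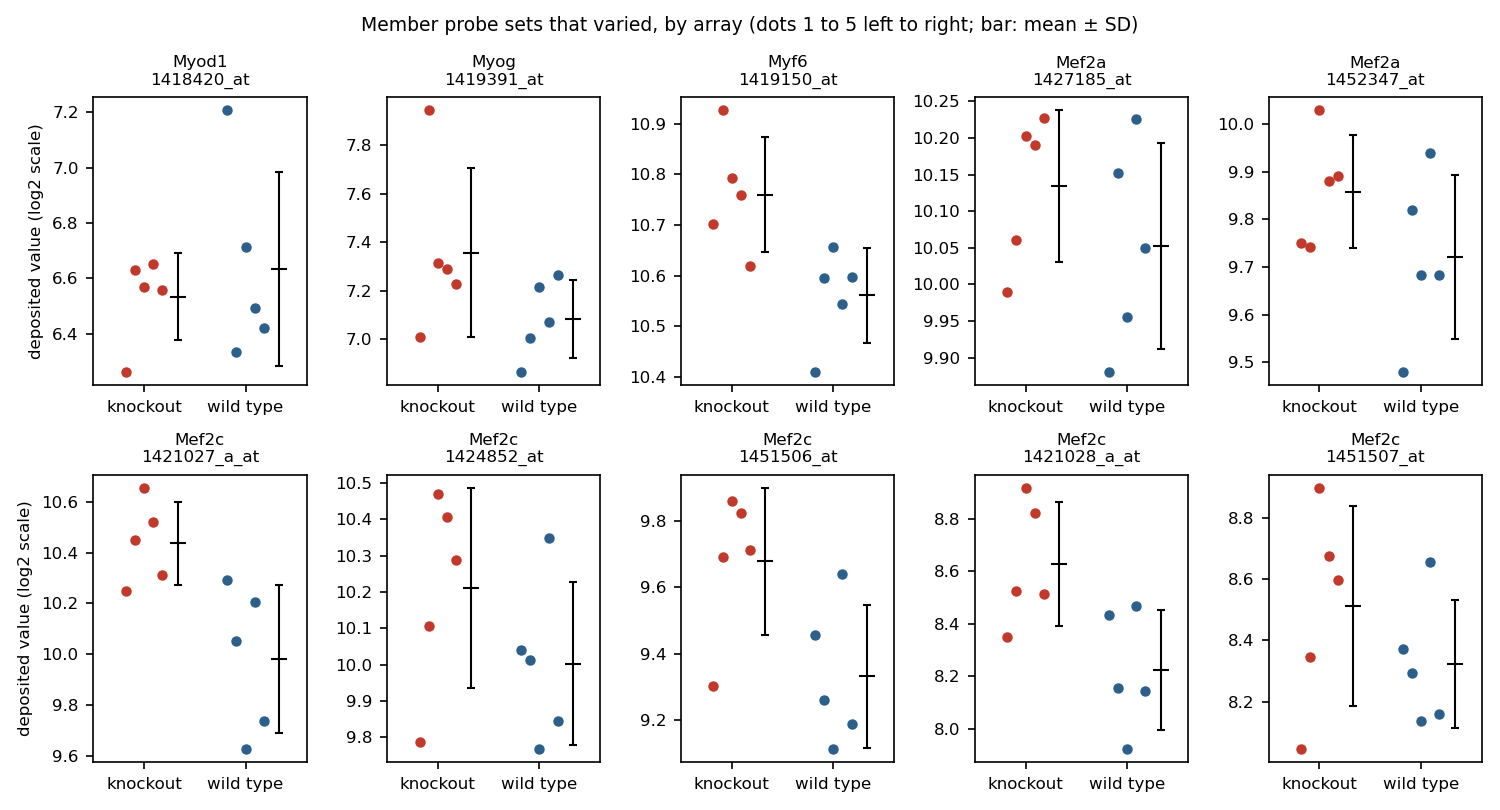
Values of the 10 varying member probe sets in each array (log2 scale, each panel with its own range), knockouts in red and wild types in blue. Dots run from array 1 to 5 and bars give mean ± SD (n = 5), the genotypes overlap in every panel, and the Myf6 panel and 3 of the 5 Mef2c panels each have 4 knockouts above all wild types.

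Myog and Myf6 went together from array to array. Over the 10 arrays their Pearson correlation was 0.842, and within genotypes (each array minus its genotype mean) it was 0.812. Without knockout 2, where both were highest, it was 0.733, the lowest value in the 10 correlations that left out 1 array. Wild type 1 was lowest for both. Both genes were read from the same RNA and scaling on each array, so this describes the arrays and carries no test. The other 9 pairs among Myod1, Myog, Myf6, Mef2a and Mef2c had correlations from −0.47 to 0.42. Myod1 against Myog gave −0.08, and Mef2c against Myf6 0.41 (within genotypes −0.27).

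Fibroblast markers moved with both genes. The 7 of 8 fibroblast markers that varied had a mean level from 9.35 to 9.71 in knockouts and from 9.18 to 9.59 in wild types. The correlation of their mean with Myog was 0.793 and with Myf6 0.774 over the 10 arrays. These were the highest among 9 marker lists for either gene, and the part of fibroblast RNA in the Myog and Myf6 differences was not tested.

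**Figure D3:**
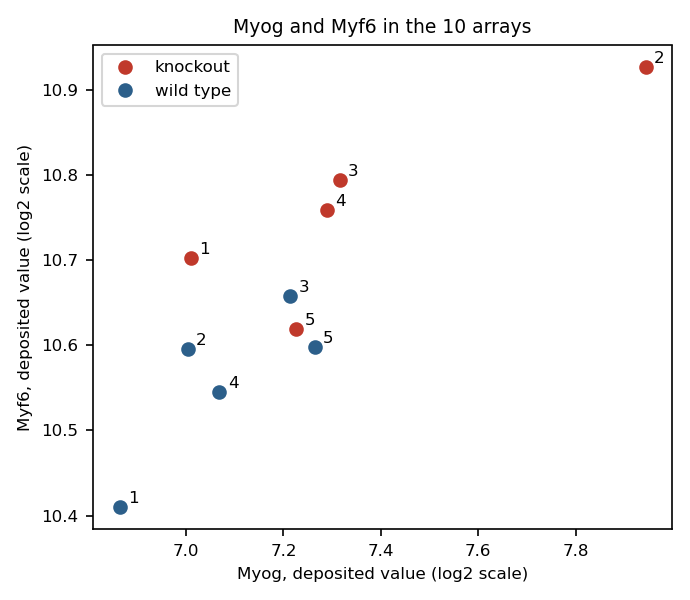
Myog against Myf6 in the 10 arrays (log2 scale, replicate numbers beside the dots), knockouts in red and wild types in blue. Knockout 2 lies at the top right and wild type 1 at the bottom left (Pearson r = 0.842 over 10 arrays).

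The upstream sequence of Myog is shown because this promoter is known for its E-box and MEF2 sites, and those of Mef2c because all its probe sets varied. Of the 3 Mef2c starts, start 2 held no match to either motif and its letters are not shown. Sequences are the 250 bases before the annotated start, 5′ to 3′ on the gene's strand, from RefSeq on GRCm38.p6. Of the 10 genes 8 matched the promoter table, with 11 starts, while Myod1 and Myf6 had no entry. Capitals mark E-boxes (CANNTG, which reads as the same motif on both strands) and the MEF2 consensus with its last base left free, searched on both strands.
Myog, chr1:134289754-134290003, plus strand: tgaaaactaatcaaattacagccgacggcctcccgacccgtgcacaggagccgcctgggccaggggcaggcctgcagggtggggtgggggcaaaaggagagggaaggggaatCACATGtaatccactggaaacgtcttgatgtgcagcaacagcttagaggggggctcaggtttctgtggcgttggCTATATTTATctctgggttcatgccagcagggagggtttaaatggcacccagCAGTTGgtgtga
Mef2c start 1, chr13:83503784-83504033, plus strand: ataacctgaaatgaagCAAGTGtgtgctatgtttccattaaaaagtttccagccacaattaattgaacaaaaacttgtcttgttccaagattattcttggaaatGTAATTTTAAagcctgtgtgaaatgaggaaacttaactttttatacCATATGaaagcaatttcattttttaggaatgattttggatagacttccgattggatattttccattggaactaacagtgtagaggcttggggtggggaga
Mef2c start 3, chr13:83573357-83573606, plus strand: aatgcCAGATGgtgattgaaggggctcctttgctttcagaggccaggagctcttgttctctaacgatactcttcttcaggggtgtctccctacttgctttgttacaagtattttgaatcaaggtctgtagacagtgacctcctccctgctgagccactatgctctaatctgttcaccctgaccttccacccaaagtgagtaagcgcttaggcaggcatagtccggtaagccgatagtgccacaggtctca

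The Myog window held an E-box starting 138 bases before the start and another 12 bases before it, with the MEF2-type match 64 bases before it. None of these overlapped. Of 32851 promoters in the table, 66.2% held at least 1 E-box in the same window and 7.03% held the MEF2 consensus with its last base free. With the full MEF2 consensus the share was 2.92%, and none of the 11 starts of the myogenic genes matched it. The looser form was tried because Myog is known for a MEF2 site, after the full form had matched none, and it matched at Myog and at Mef2c start 1. E-boxes were found at 5 of the 11 starts, those of Myog, Mstn, 2 of the 3 Mef2c starts and 1 of the 2 Runx1 starts. A match is a description of the letters and not a binding site.

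Mef2c, the MEF2 factor that fibres need for their sarcomere genes, had the widest difference of the group. All 5 of its probe sets varied, stood 2.19 to 3.98 above the array medians, and averaged higher in knockouts, by 0.19 to 0.46. The brightest (1421027_a_at) stood at 10.25, 10.45, 10.66, 10.52 and 10.31 in knockouts, against 10.29, 10.05, 9.63, 10.20 and 9.74 in wild types. Of the knockouts 4 lay above every wild type, knockout 1 lay below wild type 1, and wild types 3 and 5 were the lowest arrays. The means were 10.44 ± 0.163 in knockouts and 9.98 ± 0.290 in wild types (SD, n = 5 each). The difference of 0.46 ± 0.14 SE, 1.37 times the wild-type level, did not pass over all probe sets (limma unadjusted p = 0.0129, adjusted p = 0.526). The exact two-sided permutation test of this probe set alone gave p = 0.0159.

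The other Mef2c probe sets gave smaller differences. The next by size (1421028_a_at) stood at 8.35, 8.52, 8.92, 8.82 and 8.51 in knockouts, against 8.43, 8.15, 7.92, 8.47 and 8.14 in wild types. Its difference was 0.40 ± 0.14 SE, with 4 knockouts above all wild types (limma unadjusted p = 0.0216, adjusted p = 0.615). The probe set 1451506_at stood at 9.30, 9.69, 9.86, 9.82 and 9.71 in knockouts, against 9.46, 9.26, 9.11, 9.64 and 9.19 in wild types. It differed by 0.35 ± 0.13 SE (limma unadjusted p = 0.0314, adjusted p = 0.682), with knockout 1 inside the range of the wild types.

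The remaining pair overlapped more. The probe set 1424852_at stood at 9.79, 10.11, 10.47, 10.41 and 10.29 in knockouts, against 10.04, 10.01, 9.77, 10.35 and 9.84 in wild types. Wild type 4 lay above 3 of the knockouts there, and the difference was 0.21 ± 0.15 SE (limma adjusted p = 0.934). The last (1451507_at) stood at 8.04, 8.35, 8.90, 8.68 and 8.60 in knockouts, against 8.37, 8.29, 8.14, 8.66 and 8.16 in wild types. Its difference was 0.19 ± 0.17 SE (limma adjusted p = 0.951), and knockout 1 was the lowest of all arrays.

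**Figure D4:**
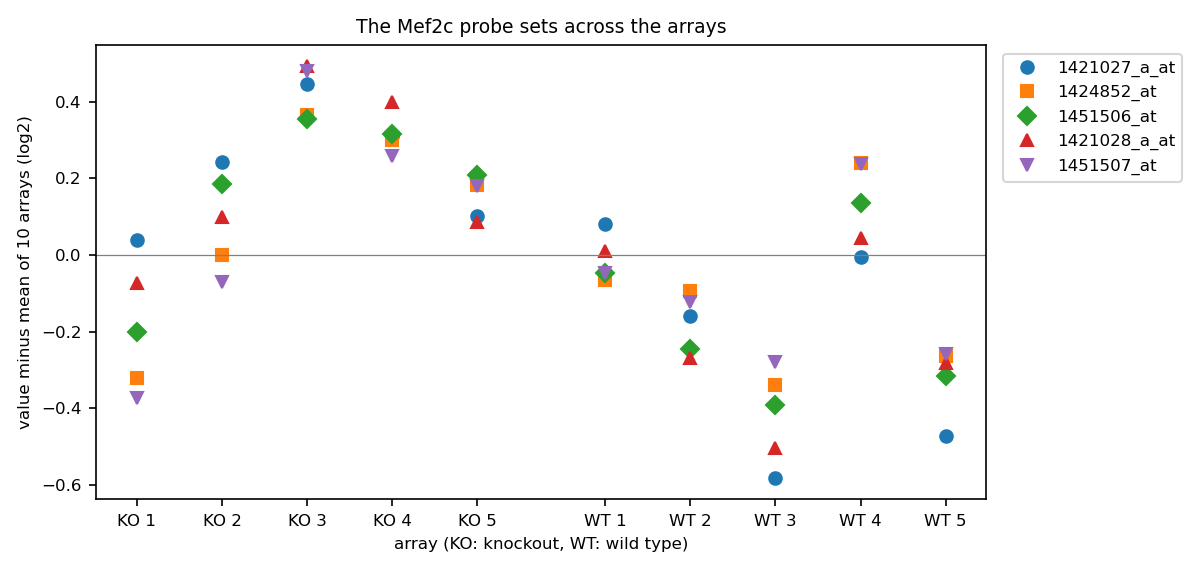
Each Mef2c probe set in each array, as the value minus that probe set's mean over the 10 arrays (log2 scale), knockouts (KO) left and wild types (WT) right. The probe sets move together, with knockout 3 at the top and wild type 3 low in all, while they spread apart in knockout 1.

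The Mef2c probe sets ranked the arrays alike but not identically. Pearson correlations among the 10 pairs ran from 0.712 to 0.981 over the 10 arrays. Because probe sets of a gene can read different ends or isoforms, the brightest was also set against the other 4 within each array, a comparison chosen after the values were seen. Its excess over 1424852_at averaged 0.22 ± 0.178 in knockouts and −0.02 ± 0.169 in wild types (SD, n = 5 each). This differed by 0.25 (exact two-sided permutation p = 0.0635, Benjamini-Hochberg adjusted over the 4 pairs p = 0.143). The excess over 1451507_at differed by 0.27 (exact permutation p = 0.0714, adjusted p = 0.143). The 2 remaining pairs differed by 0.11 and 0.05 (exact permutation p = 0.254 and 0.444). No pair passed, so an unequal change of Mef2c probe sets was not shown.

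Marker lists of fibre types and other tissues moved with Mef2c to differing degrees. Their part in its values was not tested, apart from covariate fits with lymphocyte or slow fibre markers and fits without some arrays. No other list, adipocyte and macrophage markers included, was used as a covariate. Wild type 3, the lowest array of the brightest probe set, had lymphocyte, epidermis and adipocyte marker means 1.76, 1.03 and 0.85 above their medians. Knockout 5 (lymphocyte 1.74, adipocyte 0.59) and knockout 4 (epidermis 1.26, adipocyte 0.48) were high too, with Mef2c at 10.31 and 10.52. Wild type 5, the next lowest for Mef2c at 9.74, had 0.06 for lymphocyte, −0.05 for epidermis and 0.34 for adipocyte markers. The 6 adipocyte markers measured all varied, with a mean level from 9.24 to 10.18 in knockouts and from 8.90 to 10.43 in wild types. Over the 10 arrays Mef2c correlated with the fast fibre marker mean at 0.53, with endothelial markers at −0.53, with adipocyte markers at −0.48, with slow fibre markers at −0.47, with macrophage markers at −0.41 and with lymphocyte markers at −0.40. Within genotypes the same values were 0.40, −0.22, −0.74, −0.25, −0.64 and −0.61, in that order. Epidermis and hair markers gave −0.05, Schwann cell markers −0.10 and fibroblast markers 0.30 (within genotypes −0.11, −0.51 and −0.17). Without wild type 3 the difference of the brightest probe set was 0.37, and with the lymphocyte markers as a covariate it was 0.46. With slow fibre markers as a covariate it was 0.41. Without all 5 arrays with lymphocyte or epidermis markers it was 0.56 ± 0.18 SE (limma adjusted p = 0.837), with 2 knockouts at a mean of 10.55 and 3 wild types at 10.00.

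Mef2a, another MEF2 factor, showed little difference. Its brightest probe set (1427185_at) stood at 9.99, 10.06, 10.20, 10.19 and 10.23 in knockouts, against 9.88, 10.15, 9.96, 10.23 and 10.05 in wild types. The genotypes overlapped through most of their range, and the difference was 0.08 ± 0.08 SE (limma adjusted p = 0.954). It was 0.04 without wild type 1 and 0.12 without wild type 4. The second varying probe set (1452347_at) stood at 9.75, 9.74, 10.03, 9.88 and 9.89 in knockouts, against 9.48, 9.82, 9.68, 9.94 and 9.68 in wild types. Wild type 1 was the lowest array in both, and the second difference was 0.14 ± 0.09 SE (limma adjusted p = 0.915). These 2 probe sets correlated at 0.920 over the 10 arrays. The Mef2a level followed the fast fibre markers, of which 6 of 10 varied, at a correlation of 0.888. The mean level of those markers ran from 13.00 to 13.10 in knockouts and from 12.93 to 13.07 in wild types, and their part in the Mef2a values was not tested. Without the 5 arrays with lymphocyte or epidermis markers the difference of the brightest probe set was −0.01 and that of the second 0.07. The other 4 Mef2a probe sets hardly varied, at levels from 0.17 below to 2.36 above the array medians.

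Mef2d and Runx1 could be described by level alone. The 3 Mef2d probe sets stood at 9.24, 8.35 and 6.88, which is 3.01, 2.12 and 0.65 above the array medians, with SDs of at most 0.000169 over the 10 arrays. A gene well above the medians thus also fell among those that hardly varied. The 6 probe sets of Runx1, a factor of blood formation that fibres use after denervation, lay from 0.32 below to 0.69 above the medians, with SDs of at most 0.000413.

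The other genes of the pathway were taken from 6 lists. They named 142 genes, of which 139 were measured, 81 hardly varied and 58 varied. Each of the 58 was read from its brightest varying probe set. With limma 0 of 58 passed, against 0.702% of all genes read this way, and 4 had an unadjusted p under 0.05 (6.9% of them, against 8.53%). There were 34 higher and 24 lower in knockouts, where 47.5% of all genes read this way were higher. Their median difference was 0.02, against −0.0047 over all such genes.

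All 9 varying genes of the 22 listed MEF2 partners and repressors averaged higher in knockouts, by a median of 0.09, and none passed. Of all genes read this way 47.5% were higher. Ppp3cb, Nfatc3, Smyd1 and Ankrd1 differed by less than their SE, and Hdac4, Mrtfb, Camk2a, Camk2g and Ppp3ca by more. Camk2a and another Camk2g probe set both correlated with Mef2c at 0.93. The 9 genes are thus not independent, and their count carries no test. The list mixes partners with repressors, so a shared direction has no single meaning. All 9 were higher under both other scalings (quantile and median centring) too. With slow fibre markers as a covariate or without knockout 2, Ankrd1 turned lower. Without knockout 5, wild type 1 or the 5 arrays with other tissues, Nfatc3 did. The median was 0.16 without wild type 4, and 0.05 both without wild type 3 and with the slow fibre covariate. Ppp3ca, a catalytic subunit of the phosphatase calcineurin, stood at 9.85 ± 0.104 in knockouts and 9.64 ± 0.0940 in wild types (SD, n = 5 each). It had a difference of 0.21 ± 0.06 SE (limma unadjusted p = 0.00802, adjusted p = 0.448). Camk2a, a CaM kinase subunit, stood at 9.26 ± 0.119 in knockouts and 9.04 ± 0.157 in wild types (SD, n = 5 each; limma adjusted p = 0.7). Hdac4, a deacetylase that holds MEF2 in check and is released by CaM kinase, differed by 0.23 ± 0.11 SE (limma adjusted p = 0.801) and is named after its value was seen.

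**Figure D5:**
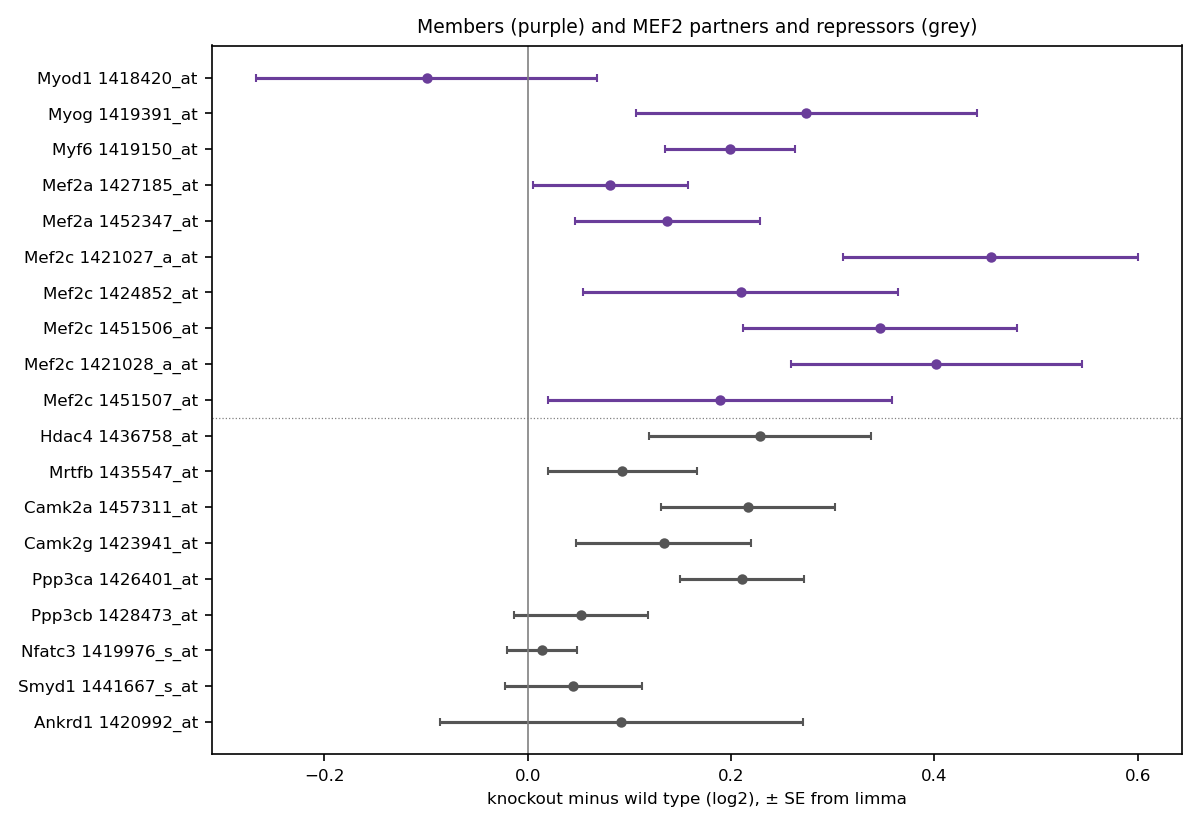
Difference between genotypes (knockout minus wild type, log2 scale) with its limma SE for the 10 varying member probe sets (purple) and the 9 varying MEF2 partners and repressors (grey). Myod1 alone lies below 0, and no adjusted p was under 0.05.

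The other lists were split in direction. Among 12 varying MRF partners and inhibitors, 6 were higher and 6 lower. Kat2b, an acetyltransferase that acts with MRF and MEF2 proteins, stood at 6.39 to 6.68 in knockouts and 6.15 to 6.36 in wild types, without overlap. Over all varying probe sets 3.96% had no overlap, and Kat2b was the only such gene in the 6 lists. It differed by 0.27 ± 0.07 SE (limma unadjusted p = 0.00332, adjusted p = 0.306), at levels 0.15 above the array medians on average. Id4, of the inhibitors that bind E proteins, differed by −0.11 (limma adjusted p = 0.945).

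Of 9 varying satellite cell and Notch genes, 4 were higher and 5 lower. Cd34, a surface protein of satellite, vessel and blood stem cells, differed by −0.08, and Met, the receptor that wakes satellite cells, by 0.12 (limma adjusted p = 0.886 and 0.887). In the myostatin and activin list 6 of 10 were higher. Smad3, which carries the signal to the nucleus, stood at 8.19 to 9.66 in knockouts and 8.28 to 8.74 in wild types. Its spread among knockouts was wide, and its difference of 0.41 ± 0.24 SE did not pass (limma adjusted p = 0.884). Acvr2a, a receptor of activin, differed by 0.13 (limma adjusted p = 0.856).

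In differentiation and fusion 6 of 10 varying genes were higher, with Cdkn1c, a cell cycle inhibitor, at 0.17 and Igfbp5, an IGF binding protein, at 0.14 (limma adjusted p = 0.921 and 0.935). Of the genes linked to Runx1 and denervation 3 of 8 were higher. Ankrd2, a stretch-responsive protein of slow fibres, stood at 10.78 ± 0.185 in knockouts and 11.08 ± 0.162 in wild types (SD, n = 5 each). It differed by −0.30 ± 0.11 SE (limma unadjusted p = 0.0220, adjusted p = 0.619). Slow fibre markers averaged −0.05 in knockouts and 0.08 in wild types around their medians, with wild type 2 highest at 0.35. Each genotype held arrays on either side of these medians, and the part of slow fibres in the Ankrd2 difference was not tested. Fbxo32, the ubiquitin ligase atrogin-1 of muscle wasting, differed by 0.19 (limma adjusted p = 0.849).

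Genes whose values followed each regulator were sought among 4487 other probe sets with an SD above 0.1. They are named by the 3 highest Pearson correlations over the 10 arrays, as a description. For Mef2c these were Camk2g (0.933), Camk2a (0.931) and Pja2 (0.927). Both CaM kinase genes also stand in the MEF2 list. For Myog they were Hspa1b, a heat shock protein (0.940), Sgk1, a glucocorticoid-responsive kinase (0.890), and Thbd (0.874). For Myf6 they were Nid1, of the basement membrane (0.909), the corepressor Nrip1 (0.888) and Arid5b (0.834).

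For Mef2a the most alike were Ndufv1, of respiratory complex I (0.976), Myom2, an M-band protein (0.970), and Atp5a1, of ATP synthase (0.967). For Myod1 they were Cyb5r4 (0.949), Fam122a (0.939) and Abhd16a (0.924). None of these 15 genes passed between genotypes. With so many probe sets and 10 arrays, high correlations are found for any pattern, so the values carry no test.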

How the data were processed

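Affymetrix mouse expression arrays were read from the deposited value table, 1 column per array. The software behind the table is not given in the sources used here. Values as deposited by the authors (4.93 to 13.96) are taken as log2 and as already normalized, though no header states the base. Of 45101 rows, 64 array controls were left out. Probe sets were named from the platform annotation, updated by gene identifier with a RefSeq table (GRCm38.p6): 34945 had 1 gene, 932 several and 9160 none, and 34741 of the first matched.

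The test of genotype used limma 3.58.1 (lmFit and eBayes, R 4.3.3) over all 45037 probe sets with Benjamini-Hochberg adjustment, called at 0.05. Single values had exact two-sided permutation tests. The fit was also run on simulated data, with independent noise in each probe set and array. Signals shared by many probe sets, such as those of lymphocyte or epidermis markers, were not simulated, so the simulation does not cover them. Members and lists were chosen with earlier results of these data known. The text names all members, the 2 genes with the smallest p of each list, any past the threshold, and the 3 most correlated genes per member (SD above 0.1, clones and predicted genes left out). Alternatives covered scaling, filters, moderation, array weights, blocks, covariates and left-out arrays. The number of arrays limits precision. Figures used matplotlib 3.10.9.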

Additional observations from a re-analysis of the deposited data

Results flagged for a closer look

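Among 44 groups of 5 values tested for an outlying array (10 member probe sets and 12 named pathway genes in each genotype), 2 were found, where chance gives about 5% of groups. Myod1 in knockout 1 stood at 6.26, and the other 4 knockouts lay between 6.56 and 6.65. Acvr2a in wild type 2 stood at 9.45, and the other 4 wild types lay between 9.19 and 9.24.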

How the results depend on the processing

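No member probe set and no pathway gene passed under any of the 22 alternatives, and the median difference of the varying member probe sets stayed between 0.17 and 0.31. Myf6 (0.16 to 0.28), Mef2c (0.32 to 0.56) and Myog (0.13 to 0.52) kept their direction under 24 alternatives each. Of these, the moderation settings, the replicate block, the filters and the permutation test leave such a difference as it was by construction. Mef2a turned to −0.011 without the 5 arrays with lymphocyte or epidermis markers, and Myod1 to 0.18. In the fits without 1 array Myod1 ran from −0.17 to 0.044, and wild type 1 alone turned it. The 5 member probe sets at an unadjusted p under 0.05 became 3 with the replicate block, with 1 probe set per gene (9 tested), with slow fibre markers as a covariate and without those 5 arrays, and 3 to 9 in the fits without 1 array. It was 3 without wild type 2 or wild type 3 and 9 without wild type 4. Of all probe sets, 86 were called. This became 43 after quantile normalization, 5 with the replicate block, 143 over varying probe sets alone, 5 with 1 probe set per gene, 41 with the slow fibre covariate, 0 without the 5 arrays (limma, 2672 at an unadjusted p under 0.05) and 31 to 57 without 1 array. Some alternatives leave fewer arrays or probe sets, and the causes of these changes were not tested. Same-numbered arrays correlated between −0.4 and 0.322 after removing genotype means. For replicates 1 and 2 this exceeded the highest correlation with another number (0.25 against 0.077 and 0.322 against 0.257). For replicates 3, 4 and 5 it did not, and these values do not settle whether the numbers pair the arrays. With the replicate block the Mef2c difference stayed 0.46 (limma unadjusted p = 0.0465), and the block changed no call of a member. Signal over background is not given in the table, so dim probe sets such as Pax7, Myf5 and Myod1 limit what can be read.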
